A study of Mus musculus with 2 samples.

Results

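The 39 Hox genes of the mouse were examined in shLuc and shKdm5b R1 embryonic stem (ES) cells after 72 h without LIF, with the *HoxB*, *HoxC* and *HoxD* genes in the foreground. They were taken from the RNA-Seq tables as every symbol of the form Hoxa, Hoxb, Hoxc or Hoxd followed by a number, which gave 39 of 21935 gene symbols. Of these, 11 belong to *HoxA*, 10 to *HoxB*, 9 to *HoxC* and 9 to *HoxD*. Where a gene had more than 1 transcript entry, the entry with the highest mean RPKM (reads per kilobase of transcript, scaled to the depth of the library) was kept.

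Each condition has 1 library. shLuc cells carry a lentiviral shRNA against luciferase, which mouse cells lack, and shKdm5b cells carry one against *Kdm5b*. Both were R1 ES cells, selected with puromycin, kept on irradiated mouse embryonic fibroblasts with LIF, and, per the labels, then moved to low-attachment dishes without LIF. *Kdm5b* encodes an enzyme that removes methyl groups from lysine 4 of histone H3. It had 51378 reads in shLuc and 1377 in shKdm5b cells, an RPKM of 104 against 3.01, so that 2.88% of the shLuc level remained. The library totals were 78172700 reads for shLuc and 72702700 for shKdm5b. With 1 library per condition there is no replicate check, and condition and library cannot be told apart. The intervals given here are exact Clopper-Pearson 95% intervals of the read ratio. They cover counting error only, and not the spread between cultures or libraries. PCR reads without molecular identifiers are not independent molecules, so the intervals can be too narrow even for counting error.

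Hox genes encode homeodomain transcription factors that give cells their position along the head-to-tail axis. Within a cluster, genes of low paralog number lie at the 3' end and are used early and far forward, in the hindbrain and neck, whereas genes of high number lie at the 5' end and are used later in the trunk, tail, limb buds and genital region. In ES cells the clusters are held nearly silent by Polycomb proteins, and their promoters carry activating and repressive histone marks together. Retinoic acid, Wnt and FGF signals, partly through the CDX factors, open them during differentiation.

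The promoters shown here belong to the *HoxB* and *HoxD* genes of low paralog number that had more reads in the shKdm5b library and for which RefSeq sequence was at hand. Each is the 250 bases before the transcription start, on GRCm38.p6 and on the plus strand. Capitals mark 3 motifs searched on both strands: TGATNNAT, a binding sequence of PBX-HOX pairs, TTTATG, bound by CDX factors, and AGGTCA, the half-site of nuclear receptors such as the retinoic acid receptors. The motifs may overlap each other.
*Hoxb1*, chr11:96365508-96365757: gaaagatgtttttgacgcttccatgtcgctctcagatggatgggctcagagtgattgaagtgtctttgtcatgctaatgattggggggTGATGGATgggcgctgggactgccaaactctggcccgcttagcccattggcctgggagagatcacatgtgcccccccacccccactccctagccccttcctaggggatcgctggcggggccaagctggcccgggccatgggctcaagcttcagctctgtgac
*Hoxb4*, chr11:96318017-96318266: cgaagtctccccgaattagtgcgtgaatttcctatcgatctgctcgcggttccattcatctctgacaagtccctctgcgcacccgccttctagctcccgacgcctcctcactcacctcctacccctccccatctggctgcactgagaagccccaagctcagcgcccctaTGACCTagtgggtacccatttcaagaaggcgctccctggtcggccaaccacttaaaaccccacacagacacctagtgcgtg
*Hoxd1*, chr2:74762730-74762979: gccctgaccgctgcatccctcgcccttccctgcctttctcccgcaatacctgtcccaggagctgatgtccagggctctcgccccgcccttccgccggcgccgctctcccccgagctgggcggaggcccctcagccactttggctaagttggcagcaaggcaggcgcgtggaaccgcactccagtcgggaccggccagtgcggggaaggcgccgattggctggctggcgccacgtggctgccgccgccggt
*Hoxd4*, chr2:74721728-74721977: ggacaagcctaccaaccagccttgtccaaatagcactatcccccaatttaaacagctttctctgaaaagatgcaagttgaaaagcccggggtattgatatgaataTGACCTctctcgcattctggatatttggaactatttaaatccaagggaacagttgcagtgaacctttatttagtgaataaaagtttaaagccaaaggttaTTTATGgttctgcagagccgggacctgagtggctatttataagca
The *Hoxb1* window holds 1 PBX-HOX match, starting at base 89 of the window. *Hoxb4* holds 1 half-site, and *Hoxd4* holds 1 half-site and 1 CDX match. The *Hoxd1* window holds none of these letters and is the richest of the 4 in CpG, with 24 CpG against 7, 14 and 3 in *Hoxb1*, *Hoxb4* and *Hoxd4*. The promoter table held 24 windows for 22 of the 39 Hox genes. Across them the median was 12.5 CpG, against 6 over 32851 promoters of the same length. PBX-HOX letters stood in 4 of the 24 windows (16.7%, against 7.68% of all promoters), CDX letters in 5 (20.8% against 10.8%) and half-sites in 6 (25.0% against 14.0%). These are descriptions of sequence, and no binding was measured here.

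The clusters also hold microRNA genes, and the mature sequences are shown because their seeds pair genes of different clusters. Capitals mark the seed, bases 2 to 8.
miR-10a-5p, *HoxB*: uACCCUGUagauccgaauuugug
miR-10b-5p, *HoxD*: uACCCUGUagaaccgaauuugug
miR-196a-5p, *HoxB* and *HoxC*: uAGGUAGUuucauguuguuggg
miR-196b-5p, *HoxA*: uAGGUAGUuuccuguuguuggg
The miR-10 pair shares the seed ACCCUGU and the miR-196 pair the seed AGGUAGU. *Mir196a-1*, in *HoxB*, had 10 reads in shLuc and 2 in shKdm5b cells, a ratio of 0.215 whose interval (0.0229 to 1.01) includes no change. The entries for *Mir10a*, *Mir10b*, *Mir196a-2*, *Mir196b* and *Mir615* had 0 reads in both libraries, which for polyadenylated RNA says little about the mature forms.

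Hox transcripts were rare in both libraries. The 39 genes together had 1840 reads in shLuc and 1068 in shKdm5b cells, or 23.5 and 14.7 RPM (reads per 1000000 reads of the library). Reads were found for 38 of them in at least 1 library, and *Hoxa13* had 0 in both. RPKM passed 1 in at least 1 library for 3 Hox genes, *Hoxa10* and *Hoxd13* among them. In bulk RNA of this kind, fewer cells that express a gene and less RNA per cell cannot be told apart. Of the *HoxB*, *HoxC* and *HoxD* genes, the highest by RPKM were *Hoxd13*, *Hoxb13* and *Hoxb9* in the shLuc library, and *Hoxd13*, *Hoxd1*, *Hoxb1* and *Hoxc13* in the shKdm5b library, as the plot of RPKM by gene shows.

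**Figure D1:**
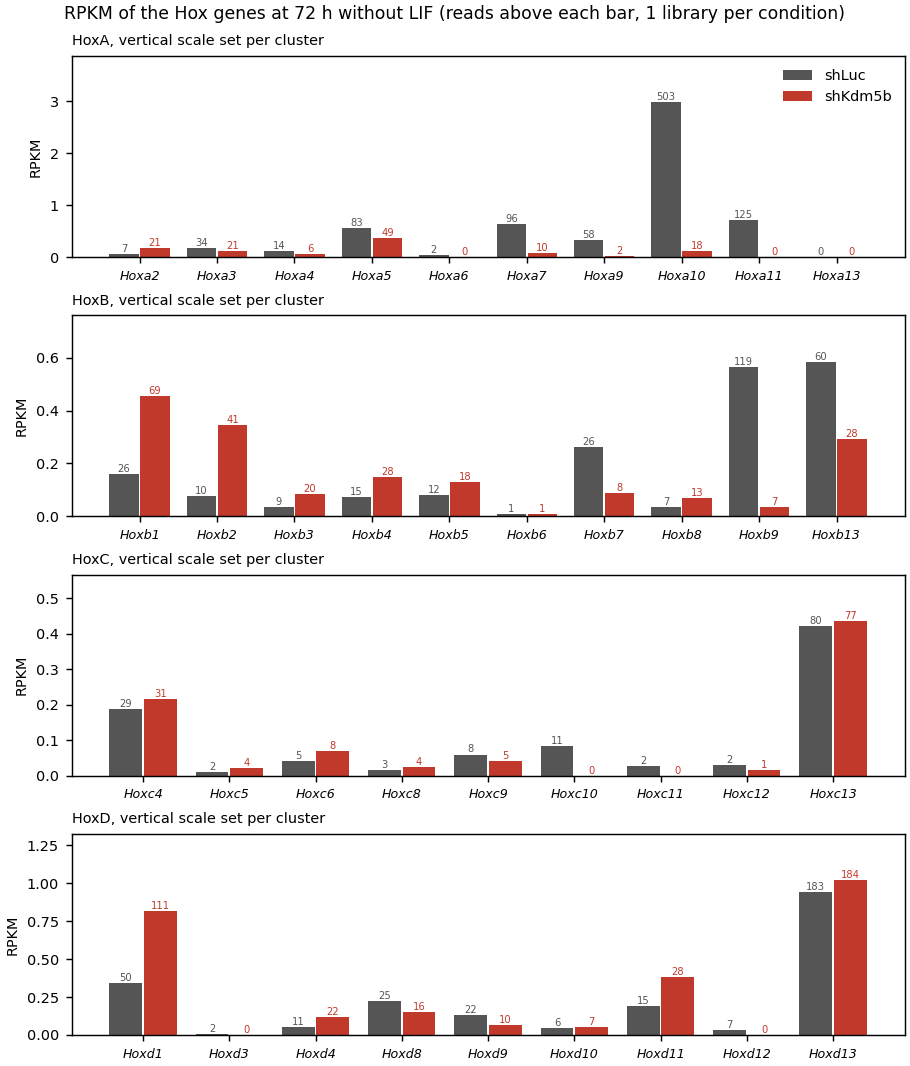
RPKM of 38 Hox genes (vertical axis, scaled per cluster) in the shLuc library (grey) and the shKdm5b library (red), with the read number above each bar and 1 library per condition. *Hoxb1*, *Hoxb2* and *Hoxd1* stand higher in the shKdm5b library, whereas *Hoxb9* falls from 119 to 7 reads and *Hoxa10* from 503 to 18.

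A gene was called higher or lower when its reads, scaled to the library totals, differed by more than 1.5-fold and the counting interval of the ratio excluded no change, among genes with at least 10 reads in both libraries together. Of the 39 Hox genes, 30 had that many reads, and 7 of these were called higher, 9 lower and 14 neither in the shKdm5b library. Of all 16099 genes with that many reads, 15.4% were called higher and 33.2% lower. Within the 4307 tested genes that stayed below RPKM 1 in both conditions, where most Hox genes belong, 12.1% were higher and 35.1% lower. By these backgrounds the share of Hox genes called lower (30%) was near that of genes in general. Over the 21 tested *HoxB*, *HoxC* and *HoxD* genes, 6 were higher (28.6%), 4 lower (19.0%) and 11 neither. With the fold and RPKM thresholds of the study, 1.5 and 1, but without its test, and with a pseudocount of 0.1 and the RPKM limit passed in either library, both chosen here, 16.3% of 11804 genes were higher and 32.0% lower. There, 3 Hox genes could be called, of which *Hoxa10* was lower.

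With the clusters pooled, the calls differed in direction by paralog number, which was not tested. *HoxA* and *HoxB* each held calls of both directions, whereas the only *HoxC* call was lower and the 2 *HoxD* calls were higher. Of the 11 tested genes of paralog groups 1 to 4, 6 were higher and 0 lower. Of the 7 tested genes of groups 5 to 8, 0 were higher and 3 lower, and of the 12 tested genes of groups 9 to 13, 1 was higher and 6 lower. Without *HoxA*, 5 of 7 tested genes of groups 1 to 4 were higher, beside 15.4% of all tested genes. Also without *HoxA*, 1 of 5 of groups 5 to 8 and 3 of 9 (33.3%) of groups 9 to 13 were lower. Of all tested genes 33.2% were lower, so outside *HoxA* the lower share of groups 9 to 13 was that of genes in general. Summed over *HoxB*, *HoxC* and *HoxD*, groups 1 to 4 had 152 reads in shLuc and 322 in shKdm5b cells, a ratio of 2.28 (interval 1.87 to 2.78). Groups 9 to 13 of the same clusters went from a summed 6.59 to 4.77 RPM, a ratio of 0.724 (0.630 to 0.832). Without *Hoxb9* this ratio was 0.923, with an interval that includes no change (log2 -0.33 to 0.10). Its log2 value, -0.46, was -0.10 after a correction for transcript GC content. After that correction *Hoxd4*, *Hoxb5* and *Hoxb8* were called higher, and *Hoxa5* and *Hoxb13* were no longer called. The calls of groups 5 to 8 then went in both directions. Over all paralogs of these 3 clusters the sums were 748 and 741 reads.

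**Figure D2:**
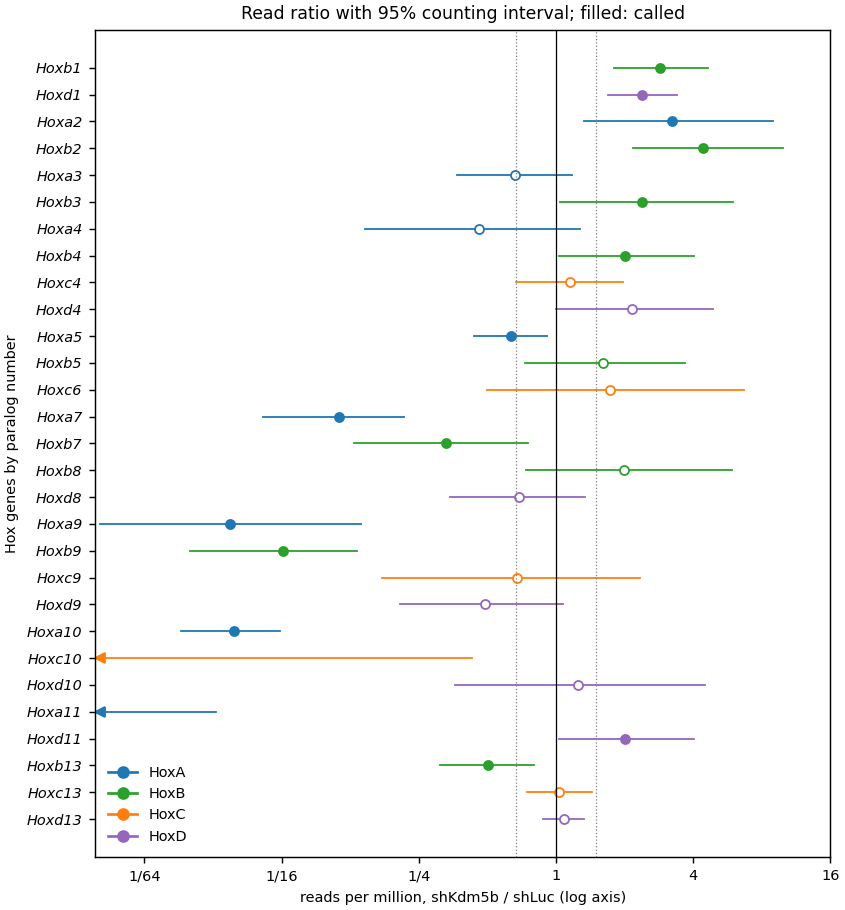
Ratio of RPM, shKdm5b over shLuc (log axis), for 29 of the 30 tested Hox genes, ordered by paralog number, with 95% counting intervals; filled points are called, open points are not, and arrows mark *Hoxc10* and *Hoxa11*, which had 0 reads in the shKdm5b library. Called genes of groups 1 to 4 lie to the right of 1, and all but *Hoxd11* of the called genes from group 5 on lie to the left.

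**Figure D3:**
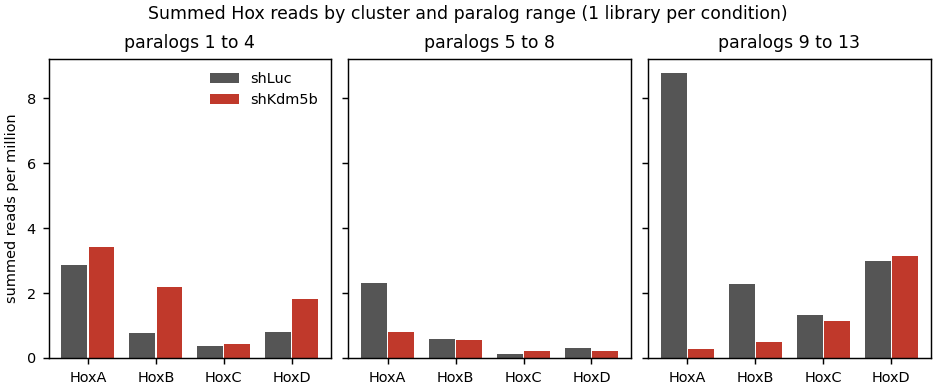
Summed RPM, reads per 1000000 library reads (vertical axis), of the Hox genes of each cluster, for paralogs 1 to 4, 5 to 8 and 9 to 13, in the shLuc (grey) and shKdm5b (red) libraries, 1 each. Paralogs 1 to 4 of *HoxB* rise from 0.768 to 2.17 RPM and those of *HoxD* from 0.806 to 1.83, while paralogs 9 to 13 fall from 8.78 to 0.275 in *HoxA* and from 2.29 to 0.481 in *HoxB*.

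*HoxB*, on chromosome 11, held both directions. All 4 genes of groups 1 to 4 were higher in the shKdm5b library. *Hoxb1*, which patterns the fourth rhombomere of the hindbrain, had 26 reads and an RPKM of 0.160 in shLuc and 69 reads and an RPKM of 0.457 in shKdm5b cells, a ratio of 2.85 (1.79 to 4.67). *Hoxb2*, a hindbrain gene that acts downstream of *Hoxb1* and of *Egr2*, had 10 and 41 reads (RPKM 0.0785 and 0.346), a ratio of 4.41 (2.17 to 9.87). *Hoxb3* had 9 and 20 reads (RPKM 0.0348 and 0.0830), a ratio of 2.39 (1.04 to 5.96). *Hoxb4*, known for its part in blood stem cell growth, had 15 and 28 reads (RPKM 0.0748 and 0.150), a ratio of 2.01 (1.04 to 4.04). The intervals of *Hoxb3* and *Hoxb4* end close to 1. In the GENCODE M21 annotation (GRCm38), 58.5% of the exon bases of *Hoxb2* and 50.9% of those of *Hoxb3* are also covered by the antisense gene *Hoxb3os*. The library kit did not mark strand, so reads of these genes and of *Hoxb3os* cannot be told apart, while *Hoxb1* and *Hoxb4* have no such overlap. The 4 genes together had 60 and 158 reads, a ratio of 2.83 (2.09 to 3.88).

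Further along *HoxB*, 3 genes were lower and none was higher. After the GC correction *Hoxb5* and *Hoxb8* were called higher and *Hoxb13* was no longer called. *Hoxb5* had 12 and 18 reads (RPKM 0.0810 and 0.131) and *Hoxb8* had 7 and 13 reads (RPKM 0.0339 and 0.0676), and neither was called. *Hoxb6* had 1 read in each library. *Hoxb7* was lower, with 26 and 8 reads (RPKM 0.262 and 0.0867), a ratio of 0.331 (0.129 to 0.752). *Hoxb9*, a gene of the trunk, had the largest change outside *HoxA* among genes with reads in both libraries: 119 reads (RPKM 0.564) against 7 (RPKM 0.0357), 15.8-fold lower (7.44 to 40.2). *Hoxb13*, which acts in the tail bud and the prostate, had 60 and 28 reads (RPKM 0.585 and 0.293) and was 1.99-fold lower (1.25 to 3.24). The cluster sum was 285 against 233 reads. Its ratio was 0.879 (0.736 to 1.05), and without *Hoxb9* it was 1.46 (1.19 to 1.80).

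*HoxC*, on chromosome 15, had the fewest reads of the 4 clusters, with 142 reads in shLuc and 130 in shKdm5b cells. At a ratio of 0.984 (0.770 to 1.26), no difference was detectable at this depth. *Hoxc13*, a regulator of hair keratins, carried most of the reads: 80 against 77 (RPKM 0.421 and 0.435), a ratio of 1.03 (0.747 to 1.43). *Hoxc4* had 29 and 31 reads (RPKM 0.187 and 0.215), a ratio of 1.15 (0.670 to 1.98). *Hoxc6* had 5 and 8 reads (RPKM 0.0402 and 0.0691) and *Hoxc9* had 8 and 5 (RPKM 0.0595 and 0.0400), and neither was called. *Hoxc10*, a hindlimb and lumbar gene, was the only *HoxC* gene called, with 11 reads (RPKM 0.0844) against 0. Its counting interval starts at 2.33-fold lower, and against a floor of 3 reads, an RPKM of 0.0247, it was 3.41-fold lower. *Hoxc10* passed the read minimum through its shLuc reads alone, and *Hoxc5* covers 8.70% of its exon bases. *Hoxc5* had 2 and 4 reads, *Hoxc8* 3 and 4, *Hoxc11* 2 and 0 and *Hoxc12* 2 and 1, all under the minimum.

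*HoxD*, on chromosome 2, had 321 reads in shLuc and 378 in shKdm5b cells, a ratio of 1.27 (1.09 to 1.47). *Hoxd1*, known for its part in the wiring of pain-sensing neurons, rose from 50 reads (RPKM 0.344) to 111 (RPKM 0.820), a ratio of 2.39 (1.69 to 3.40). With *Hoxb1* it was 1 of the 2 higher genes of paralog group 1. *Hoxd4* had 11 and 22 reads (RPKM 0.0550 and 0.118), a ratio of 2.15 whose interval (0.999 to 4.91) includes no change. A transcript of the locus covers 45.1% of the *Hoxd4* exon bases. *Hoxd3* had 2 and 0 reads, and 88.0% of its exon bases lie under other genes of the locus, *Hoxd4* among them.

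None of the tested *HoxD* genes was called lower. *Hoxd13*, the gene of the digits and external genitalia, had 183 reads (RPKM 0.943) and 184 (RPKM 1.02), a ratio of 1.08 (0.876 to 1.33). *Hoxd11* had 15 and 28 reads (RPKM 0.190 and 0.381) and was called higher, at 2.01 (1.04 to 4.04). A transcript of the locus covers 23.9% of the *Hoxd11* exon bases. *Hoxd8* had 25 and 16 reads (RPKM 0.225 and 0.155), *Hoxd9* 22 and 10 (RPKM 0.134 and 0.0655) and *Hoxd10* 6 and 7 (RPKM 0.0429 and 0.0538). None of these was called, and the interval of *Hoxd9* (0.207 to 1.08) reaches past 1. *Hoxd12* had 7 reads against 0, under the minimum. Together groups 9 to 13 of *HoxD* had 233 and 229 reads, a ratio of 1.06 (0.877 to 1.27), against 0.210 (0.142 to 0.303) for *Hoxb9* and *Hoxb13* together.

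*HoxA*, on chromosome 6, is given for comparison. It had 1092 reads in shLuc and 327 in shKdm5b cells, so its share of all Hox reads fell from 59.3% to 30.6%, while that of *HoxD* went from 17.4% to 35.4%, that of *HoxB* from 15.5% to 21.8% and that of *HoxC* from 7.72% to 12.2%. *Hoxa10* had 503 and 18 reads (RPKM 2.98 and 0.115), and was 26.0-fold lower (16.3 to 44.2). *Hoxa9* had 58 and 2 reads (RPKM 0.327 and 0.0121), *Hoxa7* 96 and 10 (RPKM 0.629 and 0.0705), and *Hoxa5* 83 and 49 (RPKM 0.566 and 0.359), and all 3 were lower. *Hoxa11* had 125 reads (RPKM 0.713) and 0, with an interval that starts at 31.1-fold lower (38.8-fold against a floor of 3 reads), and its antisense transcript *Hoxa11as* had 67 and 0. The antisense gene covers 35.0% of the *Hoxa11* exon bases. *Hoxa2* was higher, with 7 and 21 reads (RPKM 0.0533 and 0.172). *Hoxa3* (34 and 21 reads, RPKM 0.171 and 0.114) and *Hoxa4* (14 and 6 reads, RPKM 0.117 and 0.0540) were not called, and *Hoxa6* had 2 and 0 reads.

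Paralogs of the same number did not always get the same call. In group 9, *Hoxa9* and *Hoxb9* were lower, while *Hoxc9* and *Hoxd9* were not called. The ratios of *Hoxc9* and *Hoxd9*, 0.672 and 0.489, were also below 1, with intervals that include no change. In group 13, *Hoxb13* was lower, and the ratios of *Hoxc13* and *Hoxd13* were near 1. In group 4, *Hoxb4* (ratio 2.01) was higher and *Hoxa4* (0.461), *Hoxc4* (1.15) and *Hoxd4* (2.15) were not called. The ratio of *Hoxd4* was above that of *Hoxb4*, so a missing call is not in itself a difference between paralogs. Differences between paralogs were not tested, since each rests on 1 library per condition.

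The GC content of a transcript moved with the read ratio over all genes. With genes split into 10 equal bins by GC content, the median log2 read ratio was 0.43 in the most GC-poor bin and -0.90 in the most GC-rich one, and it was -0.25 over all tested genes. Hox transcripts had a median GC content of 53.9% over all 39 genes, against 50.7% for all tested genes. After a lowess correction for GC content, 10 Hox genes were higher and 7 lower, and 19.0% of all genes were higher and 20.2% lower. *Hoxb5*, *Hoxb8* and *Hoxd4* were then called higher, and *Hoxb13* and *Hoxa5* were no longer called. Scaling by the median, TMM factors or DESeq2 size factors took a common log2 shift of -0.17, -0.22 or -0.24 out of all genes and gave 8 Hox genes higher and 8 lower, with 22.8% of all genes higher and 24.5% lower under DESeq2 size factors. In each scaling *Hoxd4* was added to the higher genes and *Hoxa5* left the lower ones. The part of GC content in the Hox values was not tested.

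**Figure D4:**
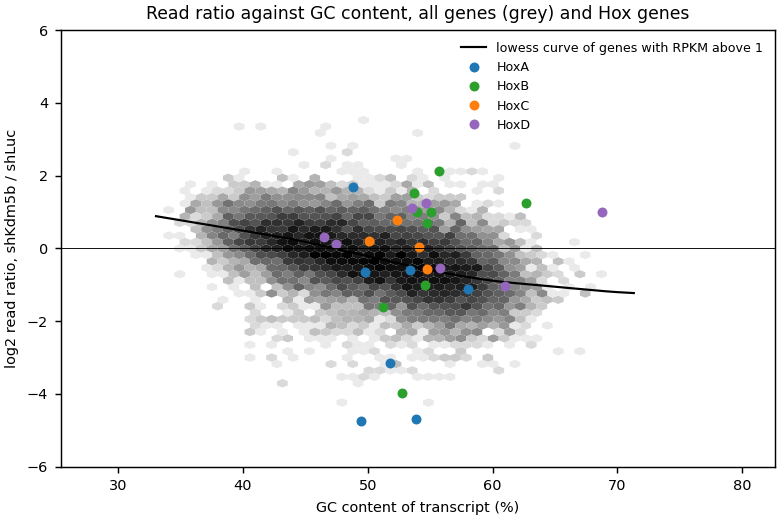
Log2 ratio of reads, shKdm5b over shLuc (vertical axis), against the GC content of the transcript in percent (horizontal axis) for all tested genes (grey hexagons, darker for more genes) and for Hox genes (coloured by cluster; *Hoxc10* and *Hoxa11*, at 0 reads in 1 library, are not drawn). The black lowess curve falls with GC content. The higher *HoxB* and *HoxD* genes lie above it by the calling rule, since the curve reaches at most 0.066 at the Hox genes.

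Feeder fibroblasts can carry Hox transcripts, so their markers were read in both libraries. Of 15 measured fibroblast markers, 11 had enough reads, 3 were higher (*Dcn*, *Twist1* and *Pdgfrb*) and 1 lower (*Fbn1*). The other 7 were not called, and after GC correction 6 were higher and 1 lower. The summed reads of the markers went from 1883 to 2442, a ratio of 1.39 (1.31 to 1.48). Most of this rise lay in *Twist1*, with an RPKM of 1.95 and 7.05, a ratio of 3.61 (3.13 to 4.18). The median log2 ratio of RPKM + 0.1 over the 11 markers was 0.08, against -0.21 over all tested genes. *Postn* had 3 and 0 reads, *Fap* 3 and 0, *S100a4* 6 and 0, and *Lum* had 2 and 4 reads. *Col1a1*, with 174 and 135 reads, *Col5a1*, with 360 and 344, and *Thy1*, with 554 and 579 (RPKM 4.08 and 4.59), were not at 0. ES cell markers were high in both libraries, with *Sox2* at an RPKM of 237 and 272. *Pou5f1* fell from an RPKM of 619 to 182 and *Esrrb* from 80.5 to 41.2, while *Dppa5a* was higher. The part of these cell types in the Hox values was not tested.

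Of the 9 tested PBX, MEIS and PKNOX genes, whose proteins bind DNA together with Hox proteins, *Meis2* was higher (97 and 178 reads, RPKM 0.269 and 0.530) and *Pknox1* lower (2823 and 1121 reads, RPKM 8.57 and 3.66). Their median log2 ratio of RPKM + 0.1 was -0.07, against -0.21 over all tested genes. Of 11 tested upstream regulators, 2 were higher and 5 lower, beside 15.4% and 33.2% of all tested genes. *Cdx1*, a direct activator of Hox genes, had 4 and 26 reads, a ratio of 6.99 (2.42 to 27.6). *T*, the primitive streak factor brachyury, had 6 and 47 reads, a ratio of 8.42 (3.59 to 24.1). *Cdx2* had 16 and 10 reads and *Cdx4* had 7 and 4, and neither was called.

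Lower regulators with a part in retinoic acid signalling or the hindbrain follow. *Cyp26a1*, which breaks down retinoic acid, had 352 and 127 reads (RPKM 2.53 and 0.981), and *Cyp26b1* had 25 and 2. *Rarb*, a retinoic acid receptor, had 56 and 24 reads. *Egr2*, a hindbrain factor that regulates *Hoxb2*, had 51 and 25 reads. These 4 were called lower, but *Egr2* was no longer called under TMM factors, DESeq2 size factors or GC correction.

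**Figure D5:**
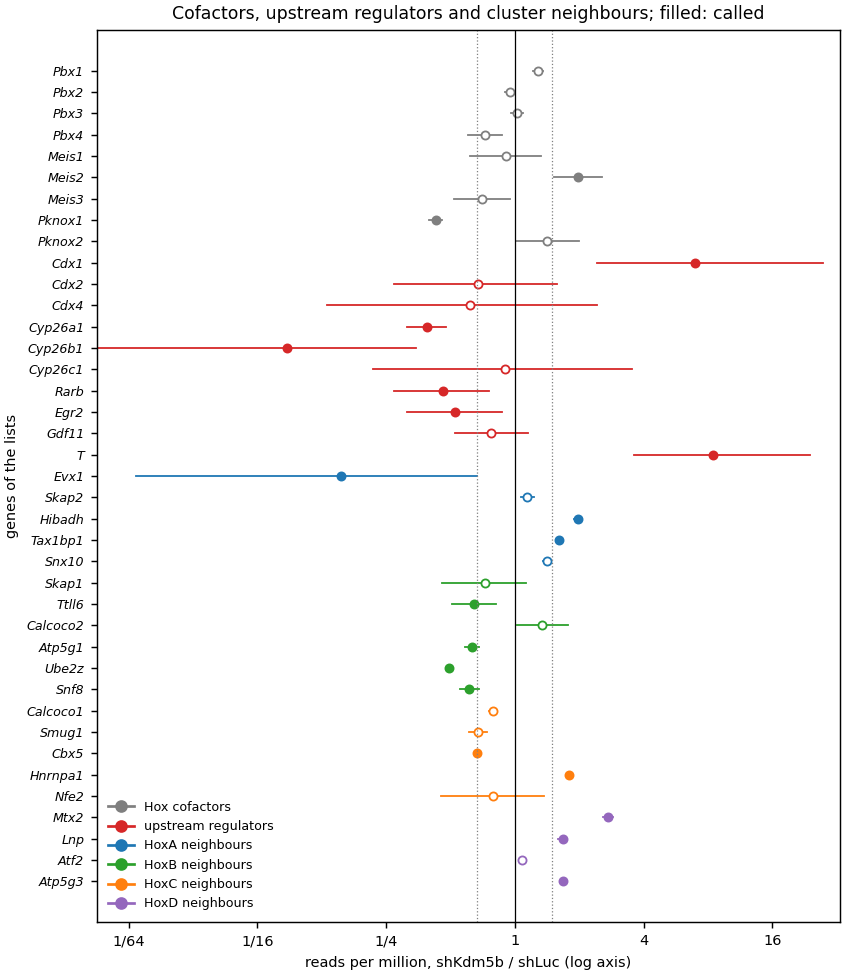
Ratio of RPM, shKdm5b over shLuc (log axis), with 95% counting intervals for tested Hox cofactors, upstream regulators and genes next to each cluster; filled points are called. *Cdx1* and *T* lie farthest to the right, *Cyp26b1* and *Evx1* farthest to the left. Of the genes beside *HoxB*, 4 of 6 are filled and left of 1, and of those beside *HoxD*, 3 of 4 are filled and right of 1; after GC correction 1 and 2 of these calls remained.

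Many genes beside the clusters reached far higher levels than the Hox genes, up to an RPKM of 358 for *Atp5g3*. Others were as rare as Hox genes, among them *Evx1* (RPKM 0.0622 and 0.00956) and *Ttll6* (0.766 and 0.494). Beside *HoxB*, 4 of 6 tested genes were lower (*Ttll6*, *Atp5g1*, *Ube2z* and *Snf8*), from 0.493-fold for *Ube2z* to 0.644-fold for *Ttll6*, where 33.2% of all tested genes were lower. Under each of the 3 scalings and after GC correction, *Ube2z* alone of these was still called. *Calcoco2*, also beside *HoxB*, was called higher under the 3 scalings. Beside *HoxD*, where 15.4% of all tested genes were higher, 3 of 4 were higher: *Mtx2* (2.73-fold, 2108 and 5357 reads), *Lnp* (1.67-fold) and *Atp5g3* (1.69-fold). After GC correction *Lnp* was no longer called, its log2 ratio going from 0.74 to 0.09. Beside *HoxC*, *Hnrnpa1* was higher and *Cbx5* lower among 5, the latter not under the scalings. Beside *HoxA*, *Hibadh* and *Tax1bp1* were higher and *Evx1* lower among 5, the last 2 not after GC correction. *Snx10*, of the same 5, was called higher under the 3 scalings. The median GC content was 42.1% for the genes beside *HoxD* and 51.9% for those beside *HoxB*.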

How the data were processed

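Polyadenylated RNA of the shLuc and shKdm5b cultures was sequenced, 1 library each. Per the labels' processing notes, CASAVA 1.0 and Bowtie 0.12.7 were used with build mm8. The counting program, the annotation release and the treatment of reads shared by paralogs or overlapping genes are not given in the sources used here. The authors deposited a read count and an RPKM value for each of 27405 transcript entries. Library totals were recovered from count, length and RPKM. Mapped read positions were not used, and neither was a column of unstated meaning. The edgeR test of the study's methods needs replicates and was not run.

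Counting intervals were computed in SciPy 1.17.1, checked on simulated data in which 197 of 200 changed genes were recovered and 95 of 15894 unchanged genes were called. That check concerns the computation of the intervals. It gives no rate of false calls for the real libraries, whose spread between cultures was not measured. edgeR 4.0.16 and DESeq2 1.42.0 gave scaling factors only. GC content and exon overlap came from GENCODE M21 transcripts on GRCm38, some of another length than the deposited entry. Promoters and microRNAs came from RefSeq on GRCm38.p6. The Hox genes and the lists were chosen with earlier results of these data known. Every Hox gene with at least 10 reads is named with reads and RPKM, others with reads, and list genes where called, except 1 Hox gene and 1 list gene that are not reported here.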

Additional observations from a re-analysis of the deposited data

How the results depend on the processing

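No paired analysis was possible because shLuc and shKdm5b had a single library apiece, so none could be left out. No called Hox gene changed direction, while the *HoxB* and *HoxC* sums, whose intervals include no change, changed sign. With a fold above 2, 1142 genes were higher and 3187 lower over all genes, and after GC correction 3166 were lower. The genes of the cofactor, upstream, neighbour, ParaHox and non-coding lists called lower fell from 15 to 9 under TMM factors, DESeq2 size factors and GC correction. In the same 3 settings those called higher went from 9 to 12, 13 and 8. With an RPKM above 0.5 in place of 1, 1 Hox gene was higher and 5 were lower. The log2 ratio of summed reads for *HoxA*, -1.63, was -1.42 under TMM factors, -1.40 under DESeq2 size factors, -2.12 with all entries of a gene summed, -1.42 after GC correction and -0.83 without *Hoxa10*. Summing entries took *Hoxa10* from 503 and 18 to 1026 and 37 reads, and its 2 entries can hold the same reads. For *HoxB*, -0.19 became 0.03 under TMM factors, 0.05 under DESeq2 size factors, 0.41 after GC correction and 0.55 without *Hoxb9*. For *HoxC*, -0.02 became 0.15, 0.20 and 0.21 under the 3 scalings and 0.42 after GC correction. For paralogs 9 to 13 without *HoxA*, -0.46 was -0.25 under TMM factors, -0.23 under DESeq2 size factors, -0.10 after GC correction and -0.12 without *Hoxb9*. For *HoxD*, 0.34 became 0.56, 0.58 and 0.73 under TMM factors, DESeq2 size factors and GC correction, and 0.60 without *Hoxd13*. The *HoxA* median log2 ratio of -0.54 was -0.99 with a pseudocount of 0.01 and -1.93 with at least 30 reads. Fibroblast marker reads went from 0.48 to 0.65, 0.70 and 0.72 under the 3 scalings. *Kdm5b*, at -5.07, was -4.91, -4.86 and -4.84 under the scalings and -4.72 with a pseudocount of 1. With at least 30 reads, *Hoxa2*, *Hoxb3* and *Hoxc10* were no longer tested. With a fold above 2, *Hoxa5* and *Hoxb13* were no longer called, and with no read minimum *Hoxd12* was called lower. The causes were not tested beyond these constructions. Read numbers limit the Hox comparisons: at 12 and 18 reads, the interval of the *Hoxb5* ratio runs from 0.735 to 3.67. The alternatives for the counts of *HoxB*, *HoxC* and *HoxD* together and for paralog ranges were added after seeing the data.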

Other observations

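The ParaHox genes, sister genes of the Hox clusters, were also rare. *Gsx1*, a factor of the ventral forebrain and spinal cord, had 210 and 67 reads (RPKM 1.52 and 0.520) in the shLuc and shKdm5b libraries. *Pdx1*, the pancreas factor, had 16 and 0 reads. Of the 6 tested, *Gsx1* and *Pdx1* (33.3%) were called lower and *Cdx1* (16.7%) higher, against 33.2% and 15.4% of all tested genes. *Gsx2*, *Cdx2* and *Cdx4* were not called.

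Markers of tissues that use Hox genes went in both directions, where 15.4% of all tested genes were higher and 33.2% lower. Of 7 tested posterior and presomitic mesoderm genes, *T* and *Dll1* were higher and *Msgn1* lower. Of 4 tested hindbrain and spinal cord genes, *Irx3* was higher and 2 were lower, *Egr2* among them. Of 4 tested blood genes, *Cd68* was higher and *Gata1*, *Tal1* and *Runx1* lower. Of 3 other tested mesoderm genes, *Meox1* was lower, while *Tbx4* and *Hand1*, of lateral plate and limb, were not called. *Tbx4* had 205 and 208 reads and *Hand1* 15 and 12 in the shLuc and shKdm5b libraries. Under TMM factors, DESeq2 size factors and GC correction, 0 hindbrain and spinal cord genes were lower. In the same settings 2 blood genes were lower, and *Meox1* was not called.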
